A study of Mus musculus with 9 samples.

Results

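The genes described here are 10 chemokine ligand genes of the mouse: 7 of the CC family (*Ccl2*, *Ccl3*, *Ccl4*, *Ccl5*, *Ccl6*, *Ccl7* and *Ccl9*) and 3 of the CXC family (*Cxcl2*, *Cxcl10* and *Cxcl16*). They were chosen by name, as the rows of a count table of 54432 genes whose Ensembl identifier carries one of these symbols, and all 10 were found. Earlier results of these data were known when these and the other gene lists were chosen. The shares and medians over all genes given below are therefore background and not a test of a list. RNAseq was done on the mouse line RAW 264.7, whose cells resemble macrophages, with 3 groups of 3 libraries each: untreated cells, cells exposed for 6 hours to VLDLsep at 1 mM and cells exposed for 6 hours to CHYLsep at 1 mM. VLDLsep and CHYLsep are artificial emulsion particles with the size of very low-density lipoproteins (VLDL) and of chylomicrons, made from sunflower oil with sodium caseinate as the emulsifier. All groups were the same cell line, cultured in medium with fetal bovine serum. The control cells are labelled untreated and received neither oil nor emulsifier, so that the effects of oil, emulsifier and particle cannot be told apart. According to the methods, the samples of a condition from 1 experiment were pooled and there were biological triplicates, so each library is 1 pool. An SD given below is the spread over 3 pools of a single cell line. Standard errors and p-values rest on the spread within groups over all 9 libraries.

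Chemokines are small secreted proteins that direct the movement of white blood cells along a gradient. They act through receptors of the G protein-coupled family on the target cell, and the families are named for the spacing of a pair of cysteines near the start of the mature protein, which form disulfide bonds. In macrophages many of these genes are induced rapidly by microbial products and cytokines through the transcription factors NF-kB, AP-1 and, for the interferon-responsive ligands, the IRF family. *Ccl2* and *Ccl7* encode attractants of monocytes that act on the receptor CCR2. The proteins of *Ccl3*, *Ccl4* and *Ccl5* attract T cells and monocytes, those of *Ccl6* and *Ccl9* act on CCR1, and those of *Cxcl2*, *Cxcl10* and *Cxcl16* on CXCR2, CXCR3 and CXCR6.

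The stretch of coding sequence that gives the families their names is shown for the 6 genes on which the results turn, with the codons of the paired cysteines in capitals. It was read from the GENCODE transcripts of GRCm38, 5′ to 3′ on the coding strand.

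Ccl2: ccactcaccTGCTGCtactcattc

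Ccl7: gcatccacaTGCTGCtatgtcaag

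Ccl4: cccacttccTGCTGTttctcttac

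Cxcl2: gaactgcgcTGTcaaTGCctgaagacc

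Cxcl10: acggtccgcTGCaacTGCatccatatc

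Cxcl16: gctggaagtTGTtctTGTgatcgtacc

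These stretches lie at chr11:82036497-82036520 (+ strand) for *Ccl2*, chr11:82046529-82046552 (+ strand) for *Ccl7* and chr11:83663473-83663496 (+ strand) for *Ccl4*. Those of the CXC genes lie at chr5:90904133-90904159 (+ strand) for *Cxcl2*, chr5:92348172-92348198 (- strand) for *Cxcl10* and chr11:70459118-70459144 (- strand) for *Cxcl16*. Each of them is inside exon 2 of its gene. In all 7 CC genes the cysteine codons were adjacent, and in all 3 CXC genes there was 1 codon between them. Only *Cxcl2* among the CXC genes had codons for glutamate, leucine and arginine directly before the first cysteine, the motif of CXC chemokines that attract neutrophils. The coding sequences, without the stop codon, were 273 to 444 bases long, except that of *Cxcl16* with 738 bases. Its product is a ligand that is made as a transmembrane protein.

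Depth was nearly equal, between 22393893 and 22856792 counts per library, and 12637 genes whose count exceeded 10 in 3 or more libraries were tested, the 10 ligands included. Levels are counts-per-million (cpm) on library sizes scaled by TMM (trimmed mean of M-values), and differences as log2 fold changes of limma-voom with Benjamini-Hochberg adjustment over all genes tested, called at an adjusted p under 0.05. All 7 macrophage markers were detected in every library. Their summed level was 5760 to 5890 cpm in untreated cells, 5340 to 5560 cpm with VLDLsep and 5460 to 5650 cpm with CHYLsep, so it was slightly lower with both particles. After VLDLsep 4 of these 7 were called, where 35.6% of all genes tested were. *Cd68* was higher (log2 fold change 0.17), and *Itgam* (-0.18), *Lyz2* (-0.14) and *Ptprc* (-0.31) were lower. After CHYLsep 1 was called, *Ptprc*, lower (-0.23), where 25.7% of all genes were called. Of 15 markers of other cell types, 5 were at 0 in every library and 4 more had at most 3 counts, and none of the 4 tested was called with limma-voom in any comparison (0 with an unadjusted p under 0.05). *Ly6g*, a neutrophil marker with too few counts to be tested, was at 0 in the 3 untreated libraries, at 0.274, 0.225 and 0.410 cpm with VLDLsep and at 0.222, 0.180 and 0.365 cpm with CHYLsep, which are at most 9 counts. The summed level of the 15 was 4.30 to 5.38 cpm in untreated cells, 5.05 to 5.66 cpm with VLDLsep and 5.75 to 6.02 cpm with CHYLsep. The part of these markers in the results was not tested. The library of replicate 3 stood apart in every group: its mean absolute log2 difference from replicates 1 and 2 was 0.185 to 0.200, against 0.117 to 0.134 between replicates 1 and 2. Values without replicate 3 of every group are therefore given beside the results they change, and its part in them was not tested further. In such bulk samples, fewer expressing cells and less RNA per cell cannot be told apart.

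In untreated cells the ligand genes spanned a wide range of levels. To compare genes, cpm was divided by the length of the exons in kilobases. *Ccl9* had the highest level with 216 ± 24.6 cpm per kb (SD, n = 3), followed by *Ccl2* with 185 ± 46.3 cpm per kb, and the libraries of these neighbours overlapped. *Ccl3* (133 ± 16.9 cpm per kb), *Ccl4* (111 ± 3.84) and *Cxcl16* (74.2 ± 13.9) came next, each without overlap with the gene above it. *Ccl7* (7.94 ± 3.51 cpm per kb), *Ccl5* (6.21 ± 0.662) and *Ccl6* (5.12 ± 0.977) were far lower, and *Ccl5* overlapped with both others. *Cxcl10* (2.13 ± 0.711 cpm per kb) and *Cxcl2* (1.09 ± 1.04) were the lowest and also overlapped. The 4 highest of the 10 genes were thus of the CC family. Outside these 10, the CXC ligand *Pf4* had 149 ± 5.08 cpm per kb in untreated cells, which is above the mean of *Ccl3*. With VLDLsep *Ccl2* went from the 2nd to the 5th place of this order, at 50.8 ± 0.808 cpm per kb below *Cxcl16* (59.6 ± 6.80), and with CHYLsep to the 4th place at 74.3 ± 5.87 cpm per kb, overlapping with *Ccl4* (78.2 ± 4.54). *Ccl7* went from the 6th place to the last with VLDLsep (0.828 ± 0.409 cpm per kb), where it overlapped with *Cxcl10*, and to the 9th with CHYLsep (1.68 ± 0.318). Of the summed level of the 10 genes, *Ccl2* made up 23.2% to 27.8% in the untreated libraries, 8.76% to 9.60% in the VLDLsep libraries and 12.3% to 14.7% in the CHYLsep libraries.

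**Figure D1:**
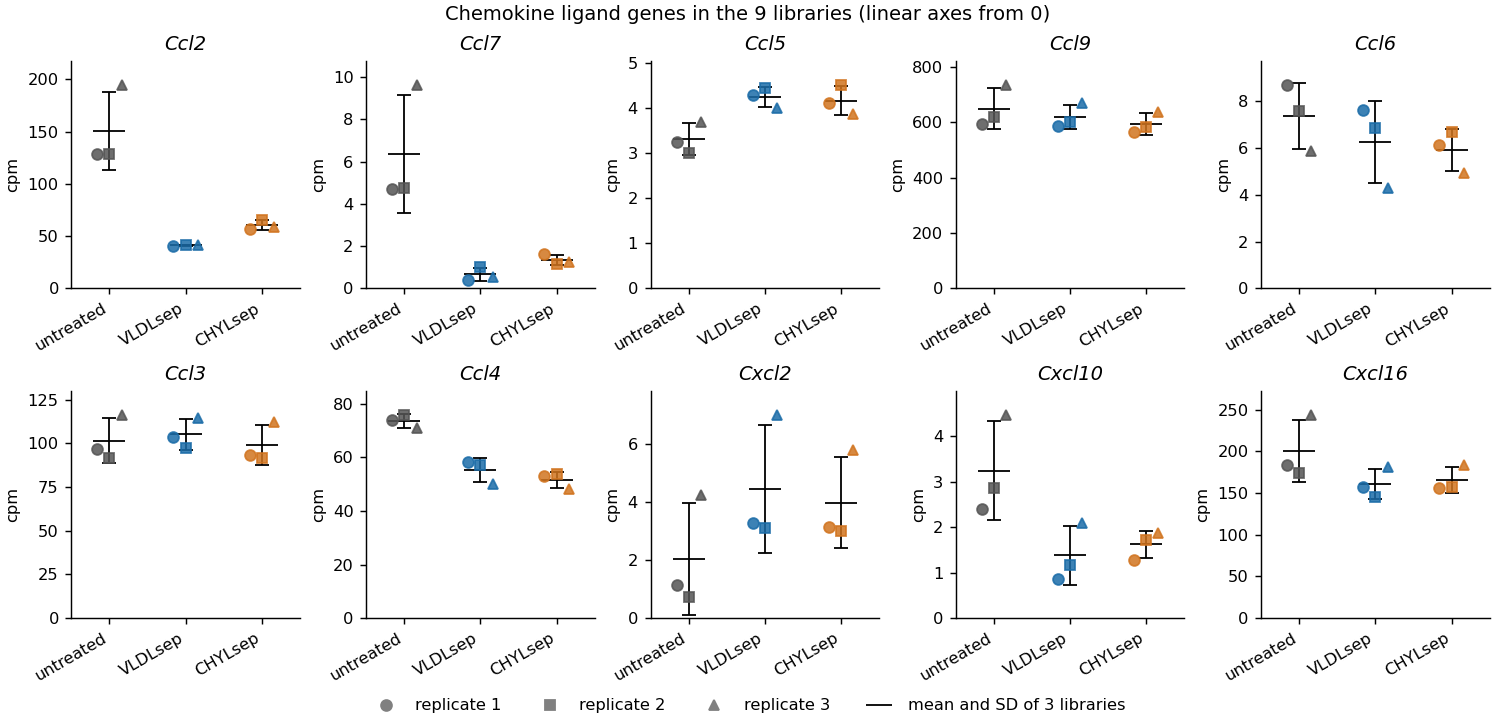
Level of each chemokine ligand gene (cpm, linear axes from 0) in the 3 untreated, 3 VLDLsep and 3 CHYLsep libraries; symbols mark the replicate number, and bars give the mean and SD of 3 libraries. The untreated libraries of *Ccl2*, *Ccl7*, *Ccl4* and *Cxcl10* all lie above those of both particles, and the replicate 3 library of untreated cells is the highest of its group for 8 of the 10 genes.

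Among the 10 ligands, *Ccl2* and *Ccl7* fell most. After VLDLsep *Ccl2* was 3.58-fold lower and *Ccl7* 9.38-fold lower, and after CHYLsep 2.45-fold and 4.43-fold lower. *Ccl4* fell by less, 1.33-fold with VLDLsep and 1.43-fold with CHYLsep, and *Cxcl10* was 2.40-fold and 1.94-fold lower. The other 6 ligands did not pass the test in either comparison, and of these *Cxcl2* and *Ccl5* had a higher mean with both particles than in untreated cells, and *Ccl3* with VLDLsep. Thus 4 of the 10 ligands were called after VLDLsep, all lower, where 17.9% of all genes tested were called lower and 17.8% higher, 35.6% in all. After CHYLsep the same 4 ligands were called, all lower, where 13.0% of all genes tested were called lower and 12.7% higher, 25.7% in all. The median log2 fold change over the ligands was -0.285 after VLDLsep and -0.288 after CHYLsep, against -0.00028 and 0.0013 over all genes tested. For 5 of the 10 ligands, the called 4 and *Ccl5*, no treated library lay within the range of the untreated ones in either comparison, where this was so for 47.4% of all genes with VLDLsep and 41.7% with CHYLsep. Both comparisons use the same untreated libraries, so the values of both are given side by side and are not 2 separate observations.

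**Figure D2:**
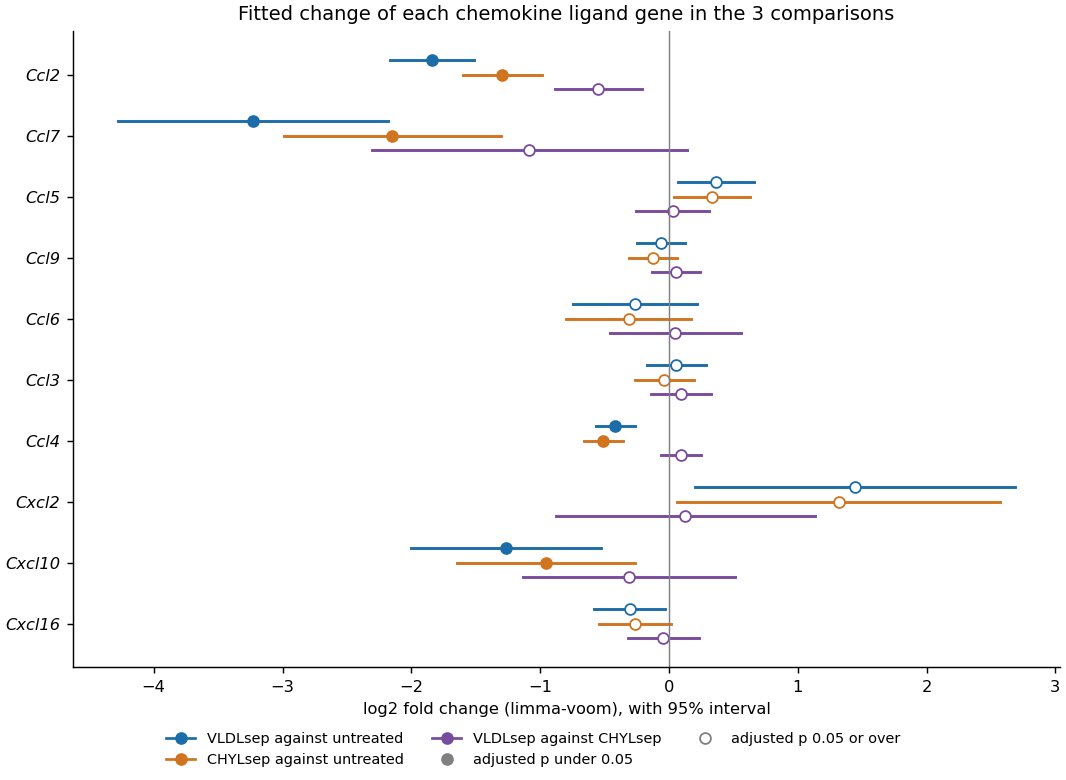
Fitted log2 fold change (horizontal axis) with its 95% interval for each chemokine ligand gene in the 3 comparisons; filled points have an adjusted p under 0.05. *Ccl2*, *Ccl7*, *Ccl4* and *Cxcl10* are filled on the lower side for both particles, and no point is filled between the particles.

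*Ccl2* encodes the main attractant of CCR2-bearing monocytes. Its level was 129, 129 and 194 cpm in untreated replicates 1, 2 and 3. It was 40.5, 41.8 and 41.5 cpm with VLDLsep and 56.6, 65.8 and 58.9 cpm with CHYLsep. Every treated library was thus below every untreated library, and the VLDLsep libraries were closer to each other than those of any other group, with a coefficient of variation of 1.59%. The log2 fold change was -1.84 (standard error 0.15, adjusted p = 7.7e-06) after VLDLsep and -1.29 (standard error 0.14, adjusted p = 9.7e-05) after CHYLsep. The high untreated replicate 3 was not matched in the treated groups: it lay 1.51 times above the mean of replicates 1 and 2, whereas this ratio was 1.01 with VLDLsep and 0.963 with CHYLsep. Between libraries with the same number the log2 ratio to untreated was accordingly largest in replicate 3, at -2.23 for VLDLsep and -1.72 for CHYLsep. The call held in all 19 alternative analyses for both particles, over a range of -1.94 to -1.64 for VLDLsep and -1.39 to -1.08 for CHYLsep.

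*Ccl7*, whose protein also attracts monocytes through CCR2, showed a like pattern at a far lower level. Its level was 4.71, 4.76 and 9.60 cpm in untreated cells. With VLDLsep it was 0.411, 1.03 and 0.546 cpm, which are 9, 23 and 12 counts, and with CHYLsep it was 1.64, 1.17 and 1.23 cpm. Again no treated library reached an untreated one, and untreated replicate 3 was 2.03 times the mean of replicates 1 and 2. The log2 fold change was -3.23 (standard error 0.47, adjusted p = 4.1e-04) after VLDLsep and -2.15 (standard error 0.38, adjusted p = 0.0021) after CHYLsep. By this value *Ccl7* ranked as the 5th lowest of the 12637 genes tested for VLDLsep and as the 19th lowest for CHYLsep, and *Ccl2* as the 57th and 99th lowest. The call of *Ccl7* held in all 19 alternatives for both particles, but the few counts with VLDLsep leave its size less certain, with a 95% interval from -4.28 to -2.18.

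Of the adjacent genes *Ccl3* and *Ccl4*, which encode macrophage inflammatory proteins, *Ccl4* changed and *Ccl3* did not pass the test. *Ccl4* was at 74.1, 75.8 and 70.8 cpm in untreated cells, 58.2, 57.3 and 50.2 cpm with VLDLsep and 52.9, 53.8 and 48.2 cpm with CHYLsep. The fall was small, but the groups did not overlap and the untreated libraries varied little, with a coefficient of variation of 3.45%. The log2 fold change was -0.42 (standard error 0.068, adjusted p = 8.3e-04) after VLDLsep and -0.51 (standard error 0.068, adjusted p = 3.8e-04) after CHYLsep, and it was called in all 19 alternatives for both. *Ccl3*, its neighbour on chromosome 11, was at 96.6, 91.8 and 116 cpm in untreated cells, 104, 97.4 and 115 cpm with VLDLsep and 93.2, 91.4 and 112 cpm with CHYLsep. In every group replicate 3 was the highest library of *Ccl3*, and the groups overlapped throughout. Its log2 fold change was 0.056 (adjusted p = 0.72, 95% interval -0.17 to 0.29) and -0.037 (adjusted p = 0.84, interval -0.27 to 0.19), and its sign changed between alternatives in both comparisons.

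*Ccl5*, whose protein attracts T cells and monocytes, lay on the other side. It was at 3.24, 2.99 and 3.69 cpm in untreated cells, 4.29, 4.45 and 4.0 cpm with VLDLsep and 4.12, 4.50 and 3.88 cpm with CHYLsep. All treated libraries were above all untreated ones, but the log2 fold changes of 0.37 (standard error 0.13, adjusted p = 0.054) and 0.34 (standard error 0.13, adjusted p = 0.092) did not pass. For VLDLsep it passed in 5 of 19 alternatives, among them limma-trend (adjusted p = 0.049) and the stricter filter on counts (adjusted p = 0.047). With the replicate number as a block the value was 0.37 (adjusted p = 0.049), without untreated replicate 3 it was 0.45 (adjusted p = 0.040), and without replicate 3 of every group 0.49 (adjusted p = 0.031). For CHYLsep it passed only without replicate 3 of every group (0.47, adjusted p = 0.048). The values of *Ccl5* rest on 71 to 100 counts per library.

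Of *Ccl9* and *Ccl6*, whose proteins act on CCR1, *Ccl9* was high and *Ccl6* was low. *Ccl9*, the most abundant ligand, was at 595, 619 and 733 cpm in untreated cells, 588, 600 and 669 cpm with VLDLsep and 564, 582 and 638 cpm with CHYLsep. *Ccl6* was at 8.66, 7.58 and 5.87 cpm in untreated cells, 7.62, 6.83 and 4.28 cpm with VLDLsep and 6.11, 6.66 and 4.92 cpm with CHYLsep. The groups overlapped for both genes, and replicate 3 was the highest library of each group for *Ccl9* and the lowest for *Ccl6*. For *Ccl9* the fitted log2 difference was -0.064 (adjusted p = 0.60) after VLDLsep and -0.12 (adjusted p = 0.33) after CHYLsep. That of *Ccl6* was -0.26 (adjusted p = 0.38) and -0.31 (adjusted p = 0.33). Under the replicate block the values for CHYLsep passed for both, at -0.12 (adjusted p = 0.017) for *Ccl9* and -0.32 (adjusted p = 0.034) for *Ccl6*, and those for VLDLsep did not.

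*Cxcl2*, which encodes an attractant of neutrophils, was the most variable ligand. It was at 1.14, 0.716 and 4.24 cpm in untreated cells, 3.29, 3.10 and 7.01 cpm with VLDLsep and 3.15, 3.02 and 5.79 cpm with CHYLsep. Within each replicate number both particles gave the higher value, but untreated replicate 3 was above the treated replicates 1 and 2, so that the groups overlapped. The coefficient of variation was 94.8% in untreated cells, where replicate 3 was 4.58 times the mean of replicates 1 and 2, and 49.4% and 39.3% with VLDLsep and CHYLsep. The fitted log2 difference was 1.45 (standard error 0.56, adjusted p = 0.068) after VLDLsep and 1.32 (standard error 0.57, adjusted p = 0.12) after CHYLsep, neither of which passed. Under the replicate block it was 1.20 (adjusted p = 0.0023) and 1.02 (adjusted p = 0.0082). Without untreated replicate 3 alone it was 2.17 (adjusted p = 0.014) and 2.05 (adjusted p = 0.026), and without replicate 3 of every group 1.80 (adjusted p = 1.3e-04) and 1.75 (adjusted p = 2.7e-04). Whether *Cxcl2* was called thus depended on how the replicate 3 libraries were treated.

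*Cxcl10*, an interferon-responsive ligand that attracts activated T cells, was also low. It was at 2.40, 2.87 and 4.46 cpm in untreated cells, 0.867, 1.17 and 2.09 cpm with VLDLsep and 1.28, 1.71 and 1.87 cpm with CHYLsep. Every treated library was below every untreated one, although the highest treated value, 2.09 cpm, came close to the lowest untreated value. The log2 fold change was -1.26 (standard error 0.33, adjusted p = 0.013) after VLDLsep and -0.96 (standard error 0.31, adjusted p = 0.046) after CHYLsep. The call for VLDLsep was lost without VLDLsep replicate 1 (-0.99, adjusted p = 0.060). That for CHYLsep was lost in 8 of 19 alternatives with an adjusted p of up to 0.15. They were limma-trend, no filter on low counts, and the fits without untreated replicate 2 (-1.02), untreated replicate 3 (-0.70), VLDLsep replicate 2 (-0.96) or CHYLsep replicate 1 (-0.80), 2 (-1.0) or 3 (-1.06). With the replicate block both calls held.

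*Cxcl16* encodes a membrane-bound ligand that also takes up oxidized lipoprotein and is released by the proteases ADAM10 and ADAM17. It was at 184, 174 and 243 cpm in untreated cells, 157, 145 and 181 cpm with VLDLsep and 156, 157 and 184 cpm with CHYLsep. The treated library was below the untreated library of the same number in all 3 cases for both particles, while the groups as a whole overlapped. On the log2 scale the difference was -0.31 (standard error 0.13, adjusted p = 0.083) after VLDLsep and -0.26 (standard error 0.13, adjusted p = 0.16) after CHYLsep. With the replicate block both passed, at -0.31 (adjusted p = 2.9e-04) and -0.26 (adjusted p = 0.0011), and without replicate 3 of every group they were -0.24 (adjusted p = 0.0018) and -0.19 (adjusted p = 0.011). For VLDLsep it also passed without untreated replicate 2 (-0.40, adjusted p = 0.045), without VLDLsep replicate 3 (-0.39, adjusted p = 0.043) with DESeq2 (adjusted p = 0.044) and when only library size was normalized (-0.40, adjusted p = 0.019), which also passed for CHYLsep (-0.34, adjusted p = 0.047).

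The count of called ligands accordingly moved with the treatment of the replicates. Whether a replicate number marks a shared experiment is not known from the labels, so blocked and within-number values are alternatives only. With the replicate block 7 of 10 were called after VLDLsep, where 47.9% of all genes were called, and 8 of 10 after CHYLsep, where 39.2% were called. Without replicate 3 of every group 7 of 10 were called after each particle, where 42.6% and 32.8% of all genes were. In untreated cells replicate 3 was the highest library for 8 of the 10 ligands, *Ccl4* and *Ccl6* being the exceptions, and for 41.1% of all genes tested. In all 3 groups at once it was the highest for 5 ligands (*Ccl3*, *Ccl9*, *Cxcl2*, *Cxcl10* and *Cxcl16*) and for 18.8% of all genes tested. Within replicate numbers, 7 ligands were below the untreated library in all 3 pairs for both particles (*Ccl2*, *Ccl4*, *Ccl6*, *Ccl7*, *Ccl9*, *Cxcl10* and *Cxcl16*), where this was so for 26.5% of all genes tested. *Ccl5* and *Cxcl2* were above it in all 3 for both, as were 26.3% of all genes, and *Ccl3* was below it in all 3 for CHYLsep and mixed for VLDLsep.

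**Figure D3:**
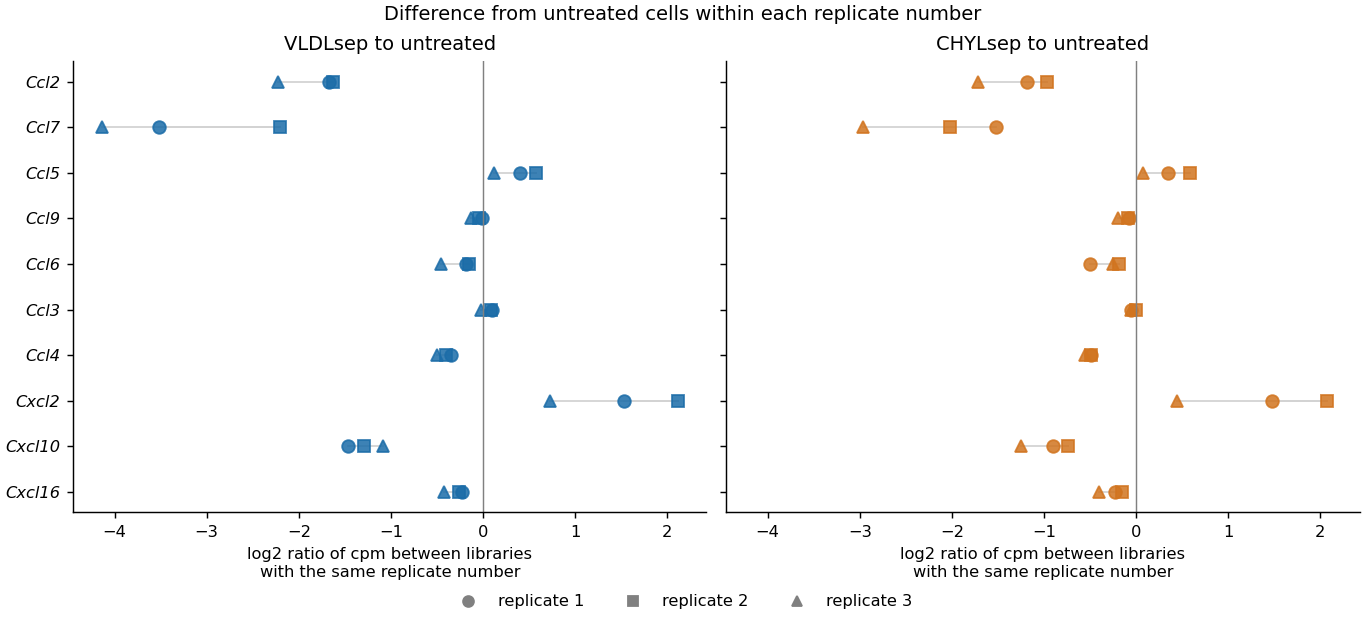
Log2 ratio of cpm between the treated and the untreated library with the same replicate number (horizontal axis), for VLDLsep (left) and CHYLsep (right); symbols mark the replicate number. For *Cxcl2* the ratio is smallest in replicate 3, at 0.72 and 0.45, and for *Ccl2* it is most negative there, at -2.23 and -1.72.

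Between the particles no ligand passed the test, nor did any other gene, so that 0.00% of all genes tested were called with limma-voom. At an unadjusted p under 0.05 there were 813 genes, 6.43% of those tested, with *Ccl2* as the only ligand among them. edgeR's quasi-likelihood test also called 0 genes, and DESeq2 called 24, which are 0.190% of those tested, again with *Ccl2* as the only ligand. *Ccl2* was lower with VLDLsep than with CHYLsep in all libraries, 41.3 ± 0.657 against 60.4 ± 4.77 cpm (SD, n = 3). The log2 fold change of VLDLsep against CHYLsep was -0.55 (standard error 0.15, 95% interval -0.89 to -0.21, adjusted p = 0.56). It was -0.55 with DESeq2 (adjusted p = 0.039) and -0.57 without replicate 3 of every group (adjusted p = 0.0014), where 1.84% of all genes were called, and over all 19 alternatives it lay between -0.59 and -0.48. *Ccl7* was also without overlap, 0.663 ± 0.327 against 1.35 ± 0.255 cpm, with a log2 fold change of -1.08 (95% interval -2.30 to 0.14, adjusted p = 0.80). These were 2 of 10 ligands without overlap, where this was so for 11.3% of all genes tested. For the other ligands the interval was narrowest for *Ccl4* (-0.060 to 0.25), *Ccl9* (-0.13 to 0.24) and *Ccl3* (-0.14 to 0.32) and widest for *Cxcl2* (-0.88 to 1.13) and *Cxcl10* (-1.13 to 0.51), which for the latter pair takes in differences of 2-fold. The intervals of *Ccl5* (-0.25 to 0.31), *Ccl6* (-0.46 to 0.56) and *Cxcl16* (-0.32 to 0.24) lay between these. The labels and methods give the same dose and time for both particles, while a figure legend of the study gives a lower dose for CHYLsep. The particles also differ in size and in the pressure at which the emulsion was made.

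The CC genes lie in separate groups on chromosome 11 (GRCm38). *Ccl2* (82035571 to 82037453) and *Ccl7* (82045712 to 82047525) are neighbours on the + strand, with 8258 bases between them. *Ccl5* (83525778 to 83530518), *Ccl9* (83572919 to 83578636), *Ccl6* (83587882 to 83593087), *Ccl3* (83647844 to 83649355) and *Ccl4* (83662584 to 83664683) form the other group, which begins 1495 kb from the start of *Ccl2*. The fitted falls of *Ccl2* and *Ccl7* in the first group were the largest among the 10 ligands. In the second group only *Ccl4*, at its end and on the strand opposite to the others, was called. *Ccl12*, a further ligand of CCR2 in the first group, is named for its position, after its values were seen. Its log2 fold change was -0.47 (adjusted p = 0.21) after VLDLsep and -0.68 (adjusted p = 0.10) after CHYLsep. With the replicate block these were -0.44 (adjusted p = 0.010) and -0.71 (adjusted p = 7.6e-04), and without replicate 3 of every group -0.59 (adjusted p = 0.010) and -0.65 (adjusted p = 0.0078). Its neighbours *Ccl11* and *Ccl8* had at most 1 count in any library. *Cxcl16* lies apart on chromosome 11 (70453983 to 70459984), and *Cxcl2* (90903871 to 90905938) and *Cxcl10* (92346638 to 92348889) lie on chromosome 5. Genes of a cluster resemble each other, but the longest run of bases shared between transcripts was 23 for *Ccl2* and *Ccl7*, 25 for *Ccl6* and *Ccl9* and 9 for *Ccl3* and *Ccl4*, against paired reads of 150 bases. The exception was *Cxcl2*, which shares a run of 110 bases with *Cxcl3*, so reads could be split between them; *Cxcl3* had at most 1 count in any library.

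**Figure D4:**
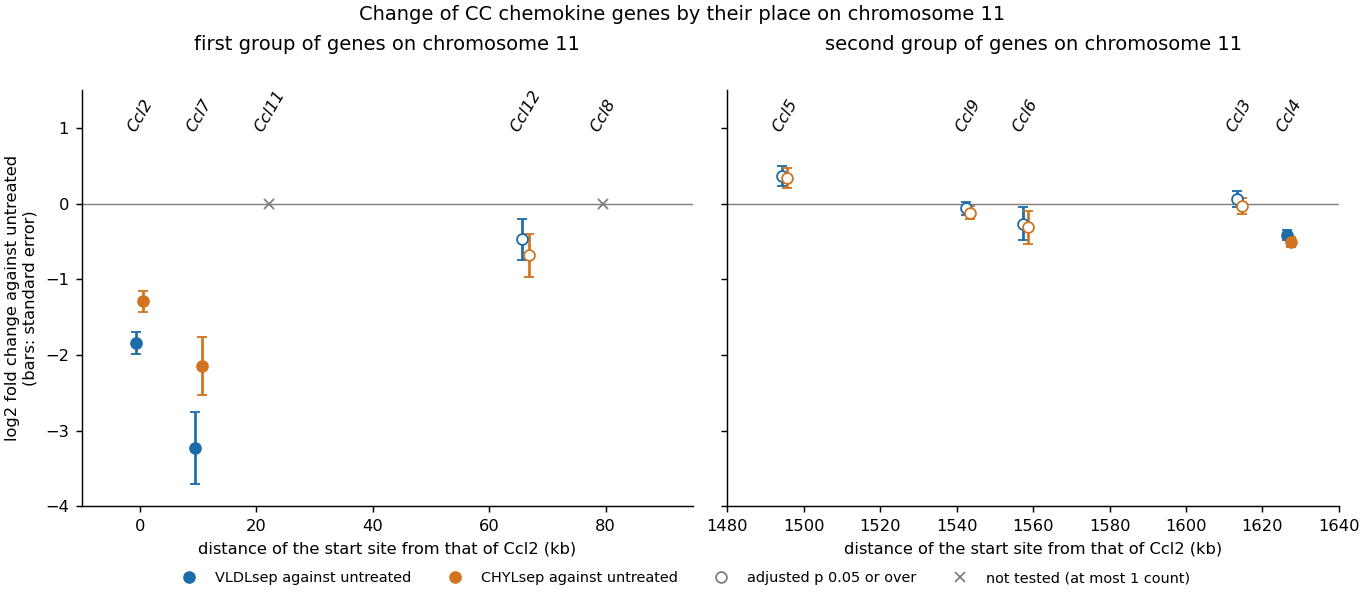
Log2 fold change against untreated cells (bars: standard error) by the distance of each CC gene's start site from that of *Ccl2* in kb, on chromosome 11; filled points have an adjusted p under 0.05 and crosses mark genes that were not tested. *Ccl2* and *Ccl7* lie between -1.29 and -3.23, and in the other group only *Ccl4* is filled.

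*Cxcl2*, whose mean was higher with both particles without passing the test, and *Cxcl10*, which was called lower, have a promoter sequence in RefSeq (GRCm38.p6). So do *Ccl3*, *Ccl6* and *Ccl9*. The 250 bases before the RefSeq start are shown for both, as chr5:90903649-90903898 (+ strand) and chr5:92348890-92349139 (- strand), 5′ to 3′ on the strand of the gene. Capitals mark matches to the NF-kB motif on either strand and to the interferon-stimulated response element (ISRE).

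Cxcl2: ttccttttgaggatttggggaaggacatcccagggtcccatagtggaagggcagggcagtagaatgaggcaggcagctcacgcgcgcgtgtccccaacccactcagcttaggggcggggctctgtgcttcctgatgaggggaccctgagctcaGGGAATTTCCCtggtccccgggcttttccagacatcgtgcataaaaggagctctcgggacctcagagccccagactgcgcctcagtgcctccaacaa

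Cxcl10: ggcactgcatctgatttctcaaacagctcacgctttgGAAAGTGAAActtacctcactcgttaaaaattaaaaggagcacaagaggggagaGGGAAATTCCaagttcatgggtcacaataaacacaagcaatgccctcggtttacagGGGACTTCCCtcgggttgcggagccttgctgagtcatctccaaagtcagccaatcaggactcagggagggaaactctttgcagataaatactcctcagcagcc

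In the *Cxcl2* promoter 2 overlapping NF-kB matches lie between bases -97 and -87, counted from the start. The *Cxcl10* promoter holds NF-kB matches at -159 to -150 and -103 to -94, the ISRE match at -213 to -204 and a match to the AP-1 motif TGANTCA at -74 to -68. The AP-1 motif and the C/EBP motif TTNCNNNAA, of which each of these promoters held 1 match, are not in capitals. No matches to different motifs overlapped. Of the other members with a promoter, *Ccl9* had 1 NF-kB match (-35 to -26), 1 AP-1 match (-53 to -47) and 1 C/EBP match (-75 to -67), and *Ccl3* and *Ccl6* had no match in this window. Over all 32851 promoters of the same length, 3.9% held an NF-kB match, 2.98% an ISRE match, 6.75% an AP-1 match and 32.9% a C/EBP match on either strand. Such matches are letters in a sequence and not sites shown to be used here.

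Most of the other chemokine ligand genes were silent or nearly so. Of 28 listed, 27 were in the table and 7 had enough counts to be tested, whereas 11 were at 0 in all libraries and 7 more had at most 3 counts. Of the 7 tested, 1 was called higher and 1 lower after VLDLsep, where 35.6% of all genes tested were called. After CHYLsep 2 were called higher and 1 lower, where 25.7% of all genes were. The median log2 fold change over the 7 tested was -0.10 and 0.15. *Pf4*, a CXC ligand first found in platelets, was the most abundant of them, with 107, 106 and 100 cpm in untreated cells, 140, 129 and 112 cpm with VLDLsep and 125, 135 and 122 cpm with CHYLsep. It rose by 0.28 (adjusted p = 0.017) and 0.29 (adjusted p = 0.019) on the log2 scale, but with library size as the only normalization it did not pass in either comparison. The calls of *Pf4* were also lost without VLDLsep replicate 1 (adjusted p = 0.064) or 2 (0.055) in the one comparison and without untreated replicate 3 (0.053) or CHYLsep replicate 2 (0.075) in the other. *Cxcl14* fell by 1.58 (adjusted p = 0.0031) and 2.07 (adjusted p = 0.0014), from at most 16 counts in any library. *Ppbp*, a neighbour of *Pf4*, rose after CHYLsep by 1.30 (adjusted p = 0.0060) and had a value of 0.80 after VLDLsep (adjusted p = 0.054), on at most 22 counts. Without replicate 3 of every group the latter was 1.15 (adjusted p = 0.032).

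Of 23 chemokine receptor genes 7 were tested, and 4 were called in each comparison, 1 higher and 3 lower, where 35.6% of all genes were called after VLDLsep and 25.7% after CHYLsep. The median log2 fold change over the 7 receptors was 0.077 after VLDLsep and 0.096 after CHYLsep. *Ccr2*, the receptor for the products of *Ccl2* and *Ccl7*, was at 9.25, 8.05 and 9.73 cpm in untreated cells, 4.79, 5.89 and 4.91 cpm with VLDLsep and 5.76, 5.45 and 4.51 cpm with CHYLsep. Like the transcripts of its ligands it fell, by 0.79 (adjusted p = 9.3e-04) and 0.78 (adjusted p = 0.0016) on the log2 scale. *Cxcr3*, the receptor for the product of *Cxcl10*, fell by 0.79 (adjusted p = 0.0029) and 0.65 (adjusted p = 0.011). The receptor genes *Ccr1*, *Cxcr2* and *Cxcr6* had at most 5 counts in any library and could not be tested. *Cxcr4*, the receptor for the product of *Cxcl12*, rose from 94.0 ± 19.2 cpm to 297 ± 17.5 cpm with VLDLsep and 273 ± 41.9 cpm with CHYLsep, by 1.68 (adjusted p = 7.8e-06) and 1.55 (adjusted p = 2.1e-05). *Cx3cr1*, the receptor for fractalkine and a marker of monocyte subsets, fell by 2.42 (adjusted p = 2.8e-04) and 1.87 (adjusted p = 0.0012). These calls of *Ccr2*, *Cxcr3*, *Cxcr4* and *Cx3cr1* held in all 19 alternatives.

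Of 24 genes that regulate or process chemokines 22 were tested. After VLDLsep 4 were called higher and 7 lower, and after CHYLsep 4 higher and 6 lower. Of all genes, 17.8% were called higher and 17.9% lower after VLDLsep, and 12.7% and 13.0% after CHYLsep. The median log2 fold change over the 22 was -0.036 and 0.029. *Irf1*, which drives interferon-responsive genes such as *Cxcl10*, fell by 0.82 after VLDLsep (adjusted p = 1.9e-04) and by 0.51 after CHYLsep (adjusted p = 0.0045). The NF-kB family went both ways: *Nfkb1* fell by 0.35 (adjusted p = 0.0017) and 0.31 (adjusted p = 0.0056), and *Rel* by 0.28 (adjusted p = 0.015) and 0.34 (adjusted p = 0.0073). *Nfkb2* of the same family, named after its values were seen, rose by 0.34 (adjusted p = 0.014) and 0.33 (adjusted p = 0.024). *Nfkbiz*, an atypical nuclear NF-kB inhibitor-like protein, fell by 0.58 (adjusted p = 0.0072) and 0.71 (adjusted p = 0.0041). *Cebpb*, a transcription factor of myeloid inflammatory genes, rose by 0.74 (adjusted p = 0.0034) and 0.70 (adjusted p = 0.0067). Among the genes of RNA-binding proteins that promote the decay of chemokine transcripts, the called ones went apart. *Zfp36* had values of 0.45 (adjusted p = 0.0054) and 0.33 (adjusted p = 0.036), the latter call being lost in 8 of 19 alternatives (adjusted p up to 0.14). *Zfp36l1* fell by 1.73 (adjusted p = 6.1e-04) and 1.53 (adjusted p = 0.0018). *Zc3h12a* of the same kind, named after its values were seen, did not pass the test at -0.096 (adjusted p = 0.66) and 0.060 (adjusted p = 0.81). *Mmp12*, a macrophage elastase that cleaves several chemokines, rose by 1.22 (adjusted p = 3.4e-04) and 1.10 (adjusted p = 0.0011). Among the enzymes that release the product of *Cxcl16*, neither *Adam10* (0.025 and -0.0096) nor *Adam17* (0.083 and 0.078) passed the test.

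**Figure D5:**
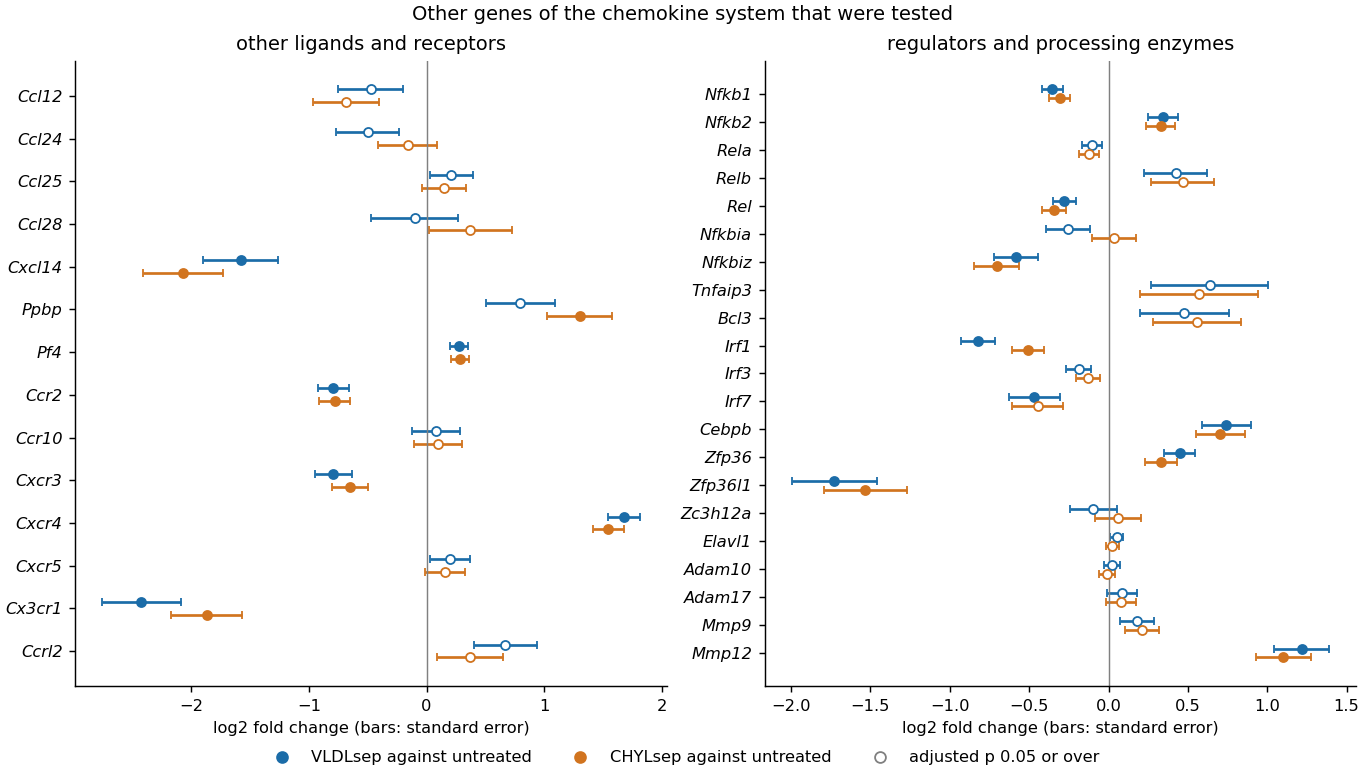
Log2 fold change (horizontal axis, bars: standard error) of the other tested ligands and receptors (left) and of the tested regulators and processing enzymes except 1 (right) after VLDLsep and CHYLsep; filled points have an adjusted p under 0.05. *Cxcr4* lies highest for both particles, at 1.68 and 1.55, and *Cx3cr1*, *Cxcl14* and *Zfp36l1* lie lowest, all below -1.5.

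The genes whose pattern over the 9 libraries was most like that of a called ligand were found by the mean absolute difference of centred log2 levels, among tested genes with at least 5 cpm. For *Ccl2* they were *Thbd* (0.18), *E2f8* (0.18) and *Srebf1* (0.21), and the nearest other ligand was *Cxcl10* (0.31). For *Ccl7* they were *Hcar2* (0.26), *Cx3cr1* (0.30) and *Insig1* (0.32), with *Ccl2* (0.35) as the nearest ligand. The pattern of *Ccl4* was met within 0.045 to 0.049 by *Cdc25b*, *Tmem268* and *Cep131*, while the nearest ligand was *Ccl9* at 0.17. For *Cxcl10* the nearest genes were *Usp2* (0.13), *Plau* (0.14) and *Ccne1* (0.14), and the nearest ligand was *Cxcl16* (0.29). The distance between the neighbours *Ccl2* and *Ccl7* (0.35) was larger than those of the nearest tested genes named for each. Those genes were picked as the nearest among all compared, so this does not show that the neighbours were unlike. The distance also counts a difference in the size of a fall, and it contains the counting noise of *Ccl7*. How *Ccl2* and *Ccl7* rank against other pairs of genes was not tested.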

How the data were processed

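RNAseq libraries of untreated, VLDLsep-treated and CHYLsep-treated cells (n = 3 each) were analysed. The authors filtered the reads, quantified GENCODE M22 transcripts of GRCm38.p6 with Salmon 0.14.1, summarized them to genes with tximport and deposited an estimated count per gene. The methods describe counts scaled for transcript length and for library size. In the deposited table, however, 58.3% of the values over 10 had no decimals, and it was analysed as unscaled. Symbols were matched for 54346 of 54432 identifiers.

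The 12637 genes whose count exceeded 10 in 3 or more libraries were fitted in R 4.3.3 with limma 3.58.1 (voom) after TMM normalization with edgeR 4.0.16, in 1 model of all 9 libraries without a block. The filter, TMM, precision weights and limma follow the methods, which do not mention a block. Cpm used the TMM-scaled totals of the tested genes. Exon lengths and coordinates came from GENCODE M21 (GRCm38), and promoters from RefSeq. P-values rest on the spread between pools within groups, estimated over all 9 libraries and moderated over the genes tested. Alternatives were edgeR's quasi-likelihood test and DESeq2 1.42.0 (counts rounded to whole numbers), limma-trend, library size only, upper quartile, no filter, more than 50 counts, only the groups compared, a replicate block, each library left out, and replicate 3 left out of every group. The steps were tested on simulated data with the same spread for every gene, in which only genes with a mean over 50 counts were changed. No replicate stood apart in it, so it does not show how replicate 3 or changes in genes with few counts are handled.

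The ligands and all gene lists were chosen with earlier results of these data known. Of each list at most 8 called genes per comparison are named, those with the smallest adjusted p, besides the receptors *Ccr1*, *Ccr2*, *Cxcr2*, *Cxcr3* and *Cxcr6*, the enzymes that release the product of *Cxcl16*, and *Ccl12*, *Ccl11*, *Ccl8* and *Cxcl3* for their position or sequence, chosen after their values were seen. The 3 genes nearest in pattern are named for each called ligand. Of the receptors and of the regulators, 1 gene each is counted but not reported by name here.

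The groups share replicate numbers, and the labels do not say that a number marks a shared experiment. Deviations from group means of log2(cpm + 0.5) correlated across genes, for replicates 1, 2 and 3, at 0.24, 0.21 and 0.41 between VLDLsep and untreated, at 0.18, 0.13 and 0.46 between CHYLsep and untreated, and at 0.096, 0.18 and 0.50 between the particles. All were over 0.1 for the comparisons with untreated cells, so blocked values are given there as alternatives. The check does not show that the numbers pair the libraries. Between CHYLsep and untreated, different numbers gave 0.19 (CHYLsep 1 with untreated 2) and 0.23 (CHYLsep 2 with untreated 1). These were above the values of the same numbers, 0.18 and 0.13. Deviations within a group cancel out, so a shared replicate 3 alone raises the values for replicates 1 and 2. The hint comes mostly from replicate 3: over all comparisons, libraries 1 and 2 with different numbers gave up to 0.27. On the voom scale the correlations for replicates 1 and 2 were at most 0.10, and libraries 1 and 2 with different numbers gave up to 0.14.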

Additional observations from a re-analysis of the deposited data

How the results depend on the processing

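Against untreated cells, *Ccl2*, *Ccl4* and *Ccl7* were called in all 19 alternatives for both particles, *Cxcl10* in 18 for VLDLsep and 11 for CHYLsep. With the replicate block 7 ligands were called after VLDLsep and 8 after CHYLsep in place of 4, and without replicate 3 of every group 7 and 7; over all genes the block called 4949 in place of 3249 for CHYLsep. The block changed no other ligand call than those given with the results. Between the particles, where the numbers do not pair the libraries by the check used, the block called 147 genes, 0 ligands and 1 receptor, DESeq2 24 genes and 1 ligand, and the fit without replicate 3 of every group 232 genes, 1 ligand, 2 receptors and 2 regulators; leaving out single libraries gave 0 to 1 genes. Of the other ligands, 1 was called with the stricter filter for either particle, since it leaves out *Cxcl14* and *Ppbp*. For VLDLsep 1 was called with library size only and 4 without replicate 3 of every group, where 42.6% of all genes were called. Leaving out single libraries gave 1 to 4 for VLDLsep, where 3488 to 4612 of all genes were called. It was 1 without VLDLsep replicate 1 or 2, and 4 without VLDLsep replicate 3. Library size only moved the median of all genes to -0.0935 (VLDLsep) and -0.0788 (CHYLsep), the sign of *Ccl3* after VLDLsep turned with it (-0.038), and no called ligand did.

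The cause of these shifts was not tested. No called value changed its sign, and the values that did were all uncalled. On leaving out single libraries, *Ccl3* ranged from -0.013 to 0.16 after VLDLsep and from -0.13 to 0.064 after CHYLsep, and *Ccl9* from -0.12 to 0.027 after VLDLsep. Between the particles *Ccl5* ranged from -0.020 to 0.086, *Ccl6* from -0.11 to 0.30, *Cxcl2* from -0.25 to 0.43 and *Cxcl16* from -0.13 to 0.035. Depth limits *Ccl7*, *Cxcl2* and *Cxcl10*, which had 9 to 224 counts per library, and *Cxcl14* and *Ppbp*.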

Other observations

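The regulators *Tnfaip3*, *Bcl3* and *Relb*, chosen after their values were seen, had a high untreated replicate 3, as *Cxcl2* did. It was 2.42, 2.17 and 1.91 times the mean of untreated replicates 1 and 2. With VLDLsep the same ratio was 1.61, 1.33 and 1.09, and with CHYLsep 1.83, 1.46 and 1.06. None of the 3 passed the test in either comparison with untreated cells in the fit without a block. In untreated cells replicate 3 was the highest library for 17 of the 22 tested regulators and for 6 of the 7 tested receptors, against 41.1% of all genes tested. Among the macrophage markers it was the highest for 2 of 7.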
